A study of Mus musculus with 18 samples.

Results

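The comparison set CD8+ against CD4+ T cells that lacked miR-155 and had been sorted from untreated tumors. Its 6 libraries, 3 of CD8 cells and 3 of CD4 cells, were chosen by their labels from the 18 libraries of the series, and the lineage difference was tested over 14080 genes. The mice were of the B6 strain, and each carried a B16f10-OVA tumor, a melanoma line with ovalbumin as a model antigen, that had grown under the skin of the hind flank for 12 days. All 6 libraries came from mice with a floxed miR-155 gene and a Cre recombinase driven by CD4 (155 Flox CD4cre, called deficient here). Such a Cre acts at the stage when developing T cells carry both coreceptors, so the CD8 cells are affected as well as the CD4 cells. The floxed pair of groups (3 CD8 and 3 CD4 libraries) had the floxed gene without Cre. The treated pair (3 and 3) had the Cre and received antibodies to PD-1/PD-L1 and CTLA-4 into the abdominal cavity on days 3, 6 and 9. Each library pooled cells of 2 to 3 tumors from separate mice before the sort. The labels do not say whether a CD8 and a CD4 library share mice and give neither the age nor the sex of the animals. With pools as replicates, p-values measure only the spread between these libraries.

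CD8 T cells recognise peptides on MHC class I and kill through perforin and granzymes. CD4 T cells recognise MHC class II and include helper cells and regulatory T cells, which restrain other T cells. The 2 lineages part in the thymus, where RUNX3 supports the CD8 fate and ThPOK (gene Zbtb7b) the CD4 fate. The microRNA miR-155 is induced when T cells are activated, and it lowers transcripts that carry a match to its seed, the bases that pair first with a target.

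The mature microRNA of the floxed gene is shown with its seed (bases 2 to 8) in capitals (RefSeq, GRCm38.p6, chr16:84714143-84714165, plus strand).
mmu-miR-155-5p: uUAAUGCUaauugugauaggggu
RUNX proteins bind DNA at sites that contain the letters TGTGGT. No start region was at hand for Cd4, Crtam, Icos and Il10. Of 8 start regions read, those of Cd8a, Eomes, Ctla4, the 2 of Foxp3 and the first of Zbtb7b did not hold these letters. Shown next, chosen because they do hold them, are the start regions (250 bases before to 50 after the start, RefSeq, GRCm38.p6, minus strand) of a gene that was higher in CD8 cells and a gene that was higher in CD4 cells, with TGTGGT or its reverse complement ACCACA in capitals. They lie at chr1:164935473-164935772 for Xcl1 and at chr3:89387622-89387921 for the second of 2 listed starts of Zbtb7b.
Xcl1: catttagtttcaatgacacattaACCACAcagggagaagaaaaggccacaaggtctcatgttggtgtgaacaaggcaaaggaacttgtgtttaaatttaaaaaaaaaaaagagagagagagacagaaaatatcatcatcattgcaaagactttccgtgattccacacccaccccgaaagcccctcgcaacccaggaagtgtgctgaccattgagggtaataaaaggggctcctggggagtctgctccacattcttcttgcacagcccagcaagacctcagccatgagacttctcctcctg
Zbtb7b: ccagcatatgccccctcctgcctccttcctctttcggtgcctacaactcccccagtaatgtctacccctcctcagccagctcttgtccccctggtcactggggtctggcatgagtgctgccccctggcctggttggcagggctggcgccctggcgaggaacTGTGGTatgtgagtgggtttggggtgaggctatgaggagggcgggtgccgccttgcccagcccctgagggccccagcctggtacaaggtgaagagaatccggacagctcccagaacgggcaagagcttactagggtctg
These letters stood in 14.5% of the 848 windows of genes called higher in CD8 cells and in 15.2% of the 1290 windows of genes called higher in CD4 cells. Among genes called in all 3 pairs of groups the order was the other way. They stood in 16.0% of the 418 windows of genes that were higher in CD8 cells in all 3. They stood in 14.4% of the 652 windows of genes that were higher in CD4 cells in all 3. Among the 12869 windows of tested genes the share was 13.2%. The letters of a T-box site (AGGTGTGA) stood in 1.2%, 0.5% and 0.8% of the last 3 sets of windows (5, 3 and 107 windows). Those of a forkhead site (TGTTTAC) stood in 1.9%, 3.4% and 2.5%, both strands read. Windows covered 10103 of the 14080 tested genes, 673 of the 874 genes called towards CD8 and 985 of the 1322 called towards CD4. A match in such a window is a description of the letters and not a measured binding site.

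The host transcript of the microRNA, Mir155hg, was close to the floor of detection in both lineages. It had 0.235, 0.892 and 1.90 CPM in the CD8 libraries and 0.648, 0 and 0.565 CPM in the CD4 libraries (CPM, the count as a rate per megaread, scaled between libraries with edgeR's TMM factors). The lineages overlapped and did not differ beyond their spread (log2 difference of 1.31 ± 0.81, SE, adjusted p = 0.315). Log2 differences are CD8 minus CD4 throughout. In the floxed groups Mir155hg stood at 16.2 ± 6.25 CPM in the CD8 libraries and 6.60 ± 1.68 CPM in CD4 libraries (SD, n = 3 each). Total counts in megareads (M) ran from 5.72 to 7.63 M in the deficient CD8 and from 3.87 to 7.38 M in the deficient CD4 libraries. Gene models that resemble ribosomal RNA took 11.8% of counts in deficient CD4 replicate 3, and 1.60 to 2.90% in the other 5 libraries. Mitochondrial genes took 1.40 to 2.38% of counts in the deficient CD8 and 0.886 to 1.01% in the deficient CD4 libraries, so this share separated the lineages. Without both kinds of gene, 854 genes were called higher in CD8 cells and 1332 in CD4 cells.

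The sort markers followed the labels. Cd8a, 1 chain of the CD8 coreceptor, had 690, 726 and 623 CPM in CD8 libraries against 0.259, 0.136 and 0.282 CPM in CD4 libraries. Cd8b1, the other chain, had 420, 405 and 338 against 17.4, 8.15 and 6.77 CPM, and Cd4 had 1.06, 0.892 and 2.38 against 637, 638 and 529 CPM. The lineages did not overlap in any of the 3 genes. The floxed CD4 libraries held more Cd8a (102 ± 75.7 CPM, SD, n = 3) than the deficient CD4 libraries did, a fact that stands beside every comparison with the floxed pair given here. The summed level of 12 T cell identity genes ran from 4211 to 4490 CPM in CD8 libraries and from 4389 to 5200 CPM in CD4 libraries, so the lineages overlapped (exact two-sided permutation p = 0.3, where 3 against 3 can give 0.1 at the least). The mean was higher in CD4 by this scaling, but higher in CD8 when counts were divided by library totals. In floxed cells the lineages did not overlap in this sum. It ran there from 4637 to 5957 CPM in CD8 libraries and from 3003 to 4561 CPM in CD4 libraries. Of the 12 genes, 8 were called higher in floxed CD8 cells and 1 in floxed CD4 cells, beside 18.9% and 20.2% of all tested genes.

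**Figure D1:**
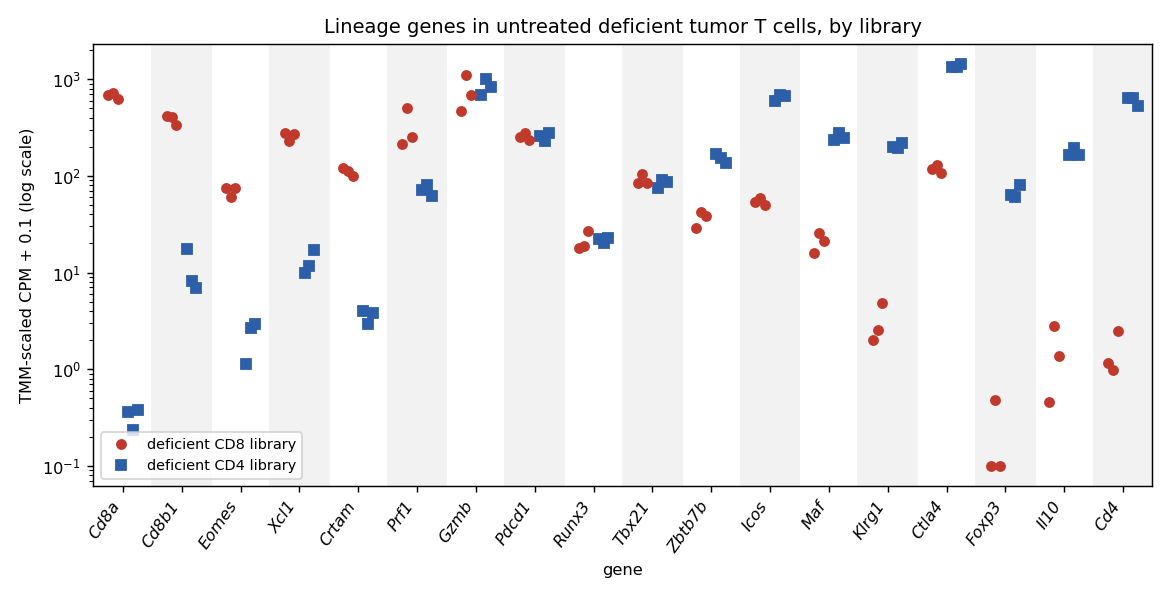
Level of 18 genes in each of the 6 libraries, as TMM-scaled CPM plus 0.1 on a log axis (circles, deficient CD8; squares, deficient CD4). Coreceptor and lineage genes separate the lineages at both ends, while Gzmb, Pdcd1, Runx3 and Tbx21 overlap.

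Over all genes, 874 were higher in CD8 cells (6.21% of those tested) and 1322 were higher in CD4 cells (9.39%) at an adjusted p under 0.05, which is 15.6% in all. The shares of 6.21% and 9.39% stand beside every list count of the deficient pair that follows. The median log2 difference over all tested genes was -0.02. With a log2 difference of at least 1 added as a condition, 336 genes were called towards CD8 (2.39%) and 636 towards CD4 (4.52%). The 3 CD8 and the 3 CD4 libraries did not overlap for 2624 genes that were higher in CD8 (18.6%) and 2987 that were higher in CD4 (21.2%), 39.9% in all. The number of called genes depended on single libraries: it was 1332 without CD4 replicate 2, 1396 without CD8 replicate 1 and 1423 without CD8 replicate 3, against 2196 with all 6. Apart from the granzymes Gzmd and Gzmf, genes drawn by the naming rule were kept only if their call held under every alternative fit. The stability of these genes follows from that choice. A log2 difference of at least 1 was not among these alternatives, and some named calls fell short of it.

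Large differences towards CD8 cells were seen in genes of many kinds. Those given here are among the 15 largest by the naming rule and were picked for calls that held under every alternative fit. Fxyd2, which encodes a subunit that modulates the sodium pump, had 10.8, 13 and 32.6 CPM in CD8 libraries and no count in CD4 libraries, so it was at least 109.6-fold higher (against 3 counts over the CD4 group). Zfhx4, a zinc finger homeobox gene, had 29.2, 25.2 and 91.5 against 0.259, 0.272 and 0.847 CPM (log2 difference of 6.92 ± 1.15). Slc6a12, a transporter of betaine and GABA, had 22.7, 14.9 and 41.0 against 0.389, 0 and 0.282 CPM (6.81 ± 0.96). In each of these 3 genes CD8 replicate 3 was the highest library, and the groups stood apart. Slc6a19, a transporter of neutral amino acids, had 24.5, 15.2 and 7.92 CPM in CD8 libraries and 0.778, 0 and 0 CPM in CD4 libraries (5.61 ± 0.87, adjusted p = 0.000128). Its floxed levels were close to each other, at 2.42 ± 1.16 and 1.78 ± 0.978 CPM (SD, n = 3), and the test of the difference between the pairs passed (5.21, adjusted p = 0.00398).

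Towards CD4 cells, the largest fitted difference was that of Gh, the gene of growth hormone. It had 44.9, 31.4 and 32.2 CPM in the deficient CD4 libraries, from 346, 231 and 114 counts, and no count in the deficient CD8 libraries, which made it at least 280.2-fold higher in CD4. Growth hormone is known as a product of the pituitary. No floxed library of either lineage held a count of Gh, while the treated CD4 libraries, which also carried the Cre, had 39.6 ± 5.53 CPM and the treated CD8 libraries 0.780 ± 0.830 CPM (SD, n = 3 each). It was thus seen mainly in the CD4 libraries with Cre, and the source of these reads was not tested. Ermn, a cytoskeletal gene known from oligodendrocytes, had 4.93, 6.65 and 9.88 CPM in CD4 and 0, 0.128 and 0 CPM in CD8 libraries, a ratio of 148.4 with a counting interval from 26.14 to 5910. Ncmap, a gene of peripheral myelin, had 22.9, 17 and 17.5 against 0, 0.128 and 0.633 CPM (log2 difference of -6.30 ± 0.73, adjusted p = 4.91e-06). Arnt2, a bHLH-PAS transcription factor, had 33.7, 40.6 and 26.0 against 0.588, 0.382 and 1.27 CPM (-5.52 ± 0.46). Arnt2 also differed from the floxed pair, where CD8 libraries held 10.8 ± 2.55 CPM and CD4 libraries 22.4 ± 8.21 CPM (SD, n = 3).

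Of 8 CD8 lineage genes, 6 were higher in CD8 cells, 1 was higher in CD4 cells and 1 was not called, with a median log2 difference of 4.69. Eomes, a T-box factor of effector and memory CD8 cells, had 75.2, 60 and 74.8 CPM in CD8 against 1.04, 2.58 and 2.82 CPM in CD4 libraries (5.10 ± 0.66, adjusted p = 0.000125). Xcl1, a chemokine that attracts cross-presenting dendritic cells, had 280, 226 and 270 against 9.85, 11.5 and 16.9 CPM (4.39 ± 0.43, adjusted p = 7.69e-06), and its start region is printed with the sequences given first. Crtam, an adhesion receptor of activated CD8 and NK cells, had 121, 112 and 99.6 against 3.89, 2.85 and 3.67 CPM (log2 difference of 5.0 ± 0.46). The groups of these 3 genes stood far apart, with little spread inside each. Itgae, the alpha chain of the CD103 integrin that binds E-cadherin, was the exception in the list: it had 17.4, 9.30 and 14.4 CPM in the CD8 libraries and 106, 116 and 102 CPM in CD4 libraries (-2.98 ± 0.43, adjusted p = 0.000255). Regulatory T cells are also known to carry CD103.

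The transcript of Runx3 did not separate the lineages. It had 17.6, 18.6 and 26.9 CPM in the CD8 libraries and 22.3, 20.2 and 22.6 CPM in CD4 libraries, so the groups overlapped (log2 difference of -0.05 ± 0.51, adjusted p = 0.969). Zbtb7b, which encodes ThPOK, had 28.6, 42.2 and 38.0 CPM in CD8 against 166, 153 and 136 CPM in CD4 libraries (-2.07 ± 0.16, adjusted p = 2.2e-08). Of 47 T cell transcription factors tested, 4 were higher in CD8 and 14 were higher in CD4 cells, beside 6.21% and 9.39% of all tested genes. The count towards CD8 was near the share of all tested genes. It fell to 2 without CD4 replicate 1, CD4 replicate 2, CD8 replicate 2 or CD8 replicate 3. Maf, an activator of Il10 and of helper cytokines, had 15.7, 25.8 and 21.2 CPM in CD8 against 233, 279 and 243 CPM in CD4 libraries (-3.59 ± 0.18, adjusted p = 6.45e-11). Rora and Nfil3, a nuclear receptor and a bZIP factor, were lower in CD8 by 1.80 and 1.57 on the log2 scale. Id3, an inhibitor of E proteins that marks memory precursors, ran the other way with 34.9, 30.2 and 29.1 against 5.18, 2.85 and 7.62 CPM (2.64 ± 0.39, adjusted p = 8.24e-05). Tbx21, the T-box factor of Th1 and effector CD8 cells, overlapped with 84.6, 106 and 83.6 against 73.9, 91.1 and 86.9 CPM (0.12 ± 0.21, adjusted p = 0.777).

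Helper genes followed Cd4: 7 of 8 were higher in CD4 cells and none in CD8 cells, with a median of -2.65. Icos, a costimulatory receptor, had 53.5, 58.4 and 50.4 CPM in CD8 against 601, 687 and 671 CPM in CD4 libraries (-3.59 ± 0.22, adjusted p = 4.23e-09). Cd40lg, the ligand by which helper cells license B cells and dendritic cells, had 0.118, 0.637 and 1.58 against 8.94, 13 and 11.6 CPM (-3.90 ± 0.68, adjusted p = 0.000561). Both were apart in every library. Gata3, the Th2 factor, and Cd5, a receptor that dampens antigen receptor signals, were lower in CD8 by 1.38 and 1.70 on the log2 scale. Among 9 tested Th2 genes 6 were higher in CD4 and none in CD8, among them Ccr4 (23.6, 21.9 and 27.9 against 0.353, 0 and 1.11 CPM) and the nuclear receptor Pparg (14.4, 12.5 and 26.0 against 1.06, 2.29 and 2.22 CPM).

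Regulatory T cell genes gave the largest number of calls of any of the 27 function lists: 23 of 27 were higher in CD4, 1 in CD8, with a median of -2.37. Foxp3, their defining factor, had 63.5, 60.7 and 79.9 CPM in CD4 libraries and 0, 0.382 and 0 CPM in CD8 libraries, from 1220 against 3 counts. The ratio was 494.7 with a counting interval from 168.9 to 2402. Il10, a suppressive cytokine, had 166, 195 and 162 CPM in CD4 against 0.353, 2.68 and 1.27 CPM in CD8 libraries (-6.93 ± 0.40, adjusted p = 8.53e-09). Itgb8, an integrin chain that activates TGF-beta, had 106, 89.9 and 107 against 2.82, 1.27 and 0.792 CPM (-5.88 ± 0.42). The CD4 libraries were thus even among themselves in genes that in CD8 libraries were at or near the floor. Ctla4, the checkpoint receptor, was present in both lineages, with 116, 128 and 106 CPM in the CD8 libraries and 1343, 1321 and 1432 CPM in CD4 libraries (-3.54 ± 0.19, adjusted p = 1.75e-10). Klrg1, an inhibitory receptor of terminal effector cells and of a part of the regulatory cells, had 1.88, 2.42 and 4.75 against 197, 192 and 219 CPM (-6.11 ± 0.29, adjusted p = 6.85e-11). Lad1, an anchoring filament gene, was the member that was higher in CD8, with 61.3, 36.8 and 42.8 against 11.8, 11.1 and 10.2 CPM (2.08 ± 0.36). In bulk libraries, fewer cells of a type and less RNA per cell cannot be told apart, so the share of regulatory cells is not given by these values.

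**Figure D2:**
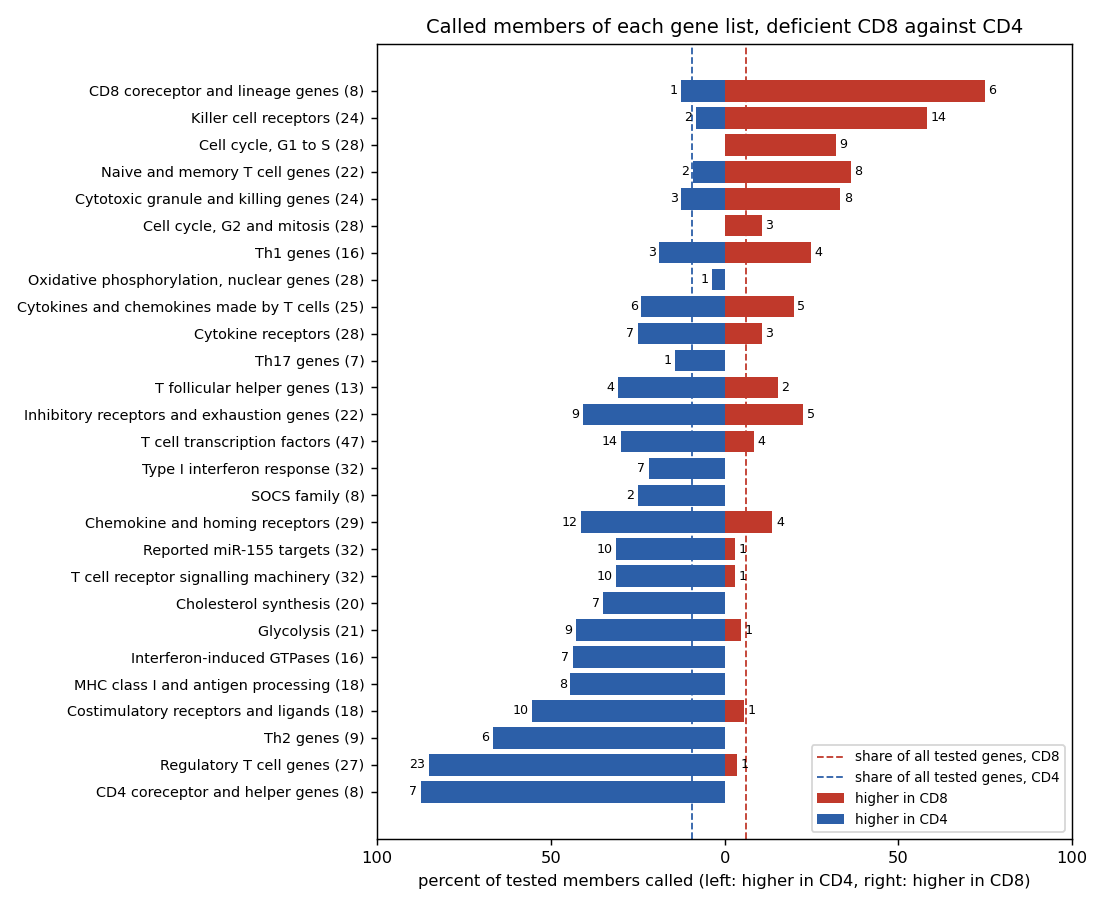
Share of the tested members of each function list (number tested in brackets) that was called higher in CD8 (right) or CD4 (left) in untreated deficient cells, with the number called at each bar and dashed lines at the shares over all tested genes. Regulatory T cell and helper genes reach furthest to the left, and CD8 lineage genes and killer cell receptors furthest to the right.

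Killer cell receptors leaned to CD8 cells, with 14 of 24 higher in CD8, 2 higher in CD4 and a median of 2.06. The second member towards CD4 lost its call without CD4 replicate 2, CD4 replicate 3, CD8 replicate 1 or CD8 replicate 3, which left 1 in each case. Klra7, a Ly49 receptor, had 94.8, 90.4 and 92.8 CPM in CD8 against 2.33, 2.44 and 3.67 CPM in CD4 libraries (5.10 ± 0.44, adjusted p = 3.37e-07). Klra6, a related receptor, had 39.2, 38.6 and 46.4 against 0.778, 1.36 and 0.847 CPM (5.33 ± 0.55). Ly49 genes are near copies of each other, so the split of reads among them is uncertain. In floxed cells Klra7 had 12.2 ± 7.99 CPM in the CD8 libraries and 9.50 ± 2.13 CPM in CD4 libraries, and Klra6 6.81 ± 2.05 and 2.84 ± 2.14 CPM (SD, n = 3 each). The lineage difference was larger in deficient than in floxed cells for both (4.73, adjusted p = 7.9e-05 for Klra7, and 3.96, adjusted p = 0.00141 for Klra6). Over the list, 7 genes differed more towards CD8 in deficient than in floxed cells and 1 more towards CD4, beside 6.89% and 4.72% of all tested genes. Cd160, an activating and inhibitory receptor of CD8 and NK cells, had 70.6, 80.0 and 84.4 against 2.20, 2.71 and 4.80 CPM (4.70 ± 0.48).

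Cytotoxic genes divided. Of 24, 8 were higher in CD8 and 3 in CD4, with a median of 0.73, and 5 were higher in CD8 without CD4 replicate 1 or CD4 replicate 3. The count was also 5 with voom, and 14 with no filter. Prf1, which encodes the pore-forming perforin, had 213, 505 and 255 CPM in CD8 against 71.5, 80.4 and 61.8 CPM in CD4 libraries (2.18 ± 0.44, adjusted p = 0.00448). Gzmc, a granzyme with close relatives in the same cluster, had 187, 332 and 192 against 24.1, 10.4 and 14.1 CPM (3.85 ± 0.76, adjusted p = 0.00429). CD8 replicate 2 was the highest library in both. The granzymes Gzmd and Gzmf were among the 15 largest differences towards CD8 cells and were called that way in all 3 pairs of groups. Counts over the CD8 and the CD4 libraries were 281 against 0 for Gzmd and 665 against 1 for Gzmf. Nkg7, a granule membrane protein, had 240, 247 and 230 against 110, 127 and 129 CPM (0.97 ± 0.11), and Ctsw, a protease of killer cells, 373, 432 and 336 against 88.7, 104 and 102 CPM (1.95 ± 0.15). Srgn, the granule proteoglycan, ran towards CD4 with 438, 479 and 453 against 1140, 1082 and 1263 CPM (-1.35 ± 0.14, adjusted p = 7.69e-07). Gzmb, the granzyme that triggers apoptosis in target cells, did not separate the lineages: it had 465, 1111 and 680 CPM in the CD8 libraries and 679, 1009 and 836 CPM in CD4 libraries (-0.16 ± 0.25, adjusted p = 0.742). In floxed cells Gzmb had 2551 ± 229 CPM in the CD8 libraries and 855 ± 80.2 CPM in CD4 libraries (SD, n = 3), and the lineage difference was smaller in deficient cells by a test of the difference itself (-1.74, adjusted p = 0.00384). After antibody treatment the deficient CD8 libraries had 4666 ± 1076 CPM and the CD4 libraries 847 ± 131 CPM (SD, n = 3).

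Inhibitory receptors did not follow one lineage. Of 22 genes of this list, 5 were higher in CD8 and 9 in CD4. The count towards CD8 was 3 without any one of CD4 replicates 1, 2 and 3 or CD8 replicates 2 and 3. Pdcd1, which encodes PD-1, had 250, 277 and 232 CPM in the CD8 libraries and 261, 231 and 277 CPM in CD4 libraries (-0.02 ± 0.14, adjusted p = 0.962). Havcr2, which encodes TIM-3, had 56.1, 122 and 73.8 against 71.5, 77.7 and 70.3 CPM (0.20 ± 0.27, adjusted p = 0.706). The lineages overlapped in both genes. In floxed cells the CD8 libraries held more of each, with 811 ± 111 against 285 ± 33.6 CPM for Pdcd1 and 538 ± 83.3 against 156 ± 26.4 CPM for Havcr2 (SD, n = 3 each). The difference between the pairs passed the test for Pdcd1 (-1.52, adjusted p = 9.35e-05) and for Havcr2 (-1.59, adjusted p = 0.0127). Entpd1, the ectoenzyme CD39 that degrades extracellular ATP, had 19.2, 40.4 and 30.9 CPM in CD8 against 130, 159 and 146 CPM in CD4 libraries (-2.27 ± 0.18), a larger difference than in floxed cells (-1.70, adjusted p = 0.000175). Cd96, a receptor of the nectin family of ligands, was higher in CD8, with 200, 188 and 172 against 85.5, 96.4 and 94.6 CPM (1.02 ± 0.16, adjusted p = 0.00018). Among costimulatory genes 10 of 18 were higher in CD4 and 1 in CD8, a call that was lost without any one library. Tnfrsf8, the receptor CD30, had 2.47, 1.53 and 1.11 against 38.9, 38.8 and 40.9 CPM (-4.49 ± 0.34, adjusted p = 2.62e-08).

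Naive and memory genes leaned to CD8 cells, with 8 of 22 higher in CD8 and 2 higher in CD4 (1 higher in CD4 without CD4 replicates 2 or 3 or any one CD8 replicate), and a median of 0.68. Bcl2, the survival gene, had 267, 351 and 245 against 63.5, 104 and 60.1 CPM (1.92 ± 0.27). Actn1, an actin crosslinker, had 157, 126 and 122 against 64.2, 24.9 and 26.8 CPM (1.79 ± 0.28). The neighbouring genes Ly6c2 and Ly6c1 went opposite ways: Ly6c2 had 442, 684 and 484 against 120, 217 and 192 CPM, and Ly6c1 had 0, 0.510 and 0.317 against 15.2, 16.2 and 7.06 CPM. They are similar in sequence, so reads could be shared between them. Gpr15, a homing receptor of the gut, had 20.5, 17.7 and 17.1 against 0.907, 2.31 and 7.06 CPM (2.55 ± 0.53, adjusted p = 0.00212), while in floxed cells the CD4 libraries were higher (-2.13), and the pairs differed (4.68, adjusted p = 0.000394).

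Among secreted factors, 5 of 25 were higher in CD8 and 6 in CD4, and without CD4 replicate 1 or CD8 replicate 3 the count towards CD8 was 3. Ifng, the interferon that activates macrophages and MHC genes, had 184, 499 and 379 CPM in CD8 against 37.6, 47.6 and 72.5 CPM in CD4 libraries (2.77 ± 0.45, adjusted p = 0.000953). Ccl3, an inflammatory chemokine, had 154, 296 and 243 against 62.6, 120 and 85.5 CPM (1.37 ± 0.24). CD8 replicate 1 was the lowest CD8 library in both. Areg, a growth factor made by regulatory and type 2 cells, had 0.824, 0.255 and 0.792 against 21, 23.5 and 26.0 CPM (-5.20 ± 0.44). Penk, the enkephalin precursor, and Cxcl10, a chemokine induced by interferon, were lower in CD8 by 2.27 and 1.65 on the log2 scale. Of 29 chemokine and homing receptors 4 were higher in CD8 and 12 in CD4. Ccr3, known from eosinophils and Th2 cells, had 0.235, 1.40 and 0.158 CPM in CD8 against 47.6, 41.4 and 57.9 CPM in CD4 libraries (-6.27 ± 0.55, adjusted p = 2.64e-07), a larger difference than in floxed cells (-3.73, adjusted p = 0.00227). Ccr2, a receptor of monocytes and of some T cells, had 165, 275 and 353 against 1725, 1977 and 2122 CPM (-2.88 ± 0.25). Ccr2 is also on the list of macrophage markers, whose summed level was higher in the CD4 libraries.

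Signalling genes were called in both directions. Of 28 cytokine receptors, 3 were higher in CD8 (0 without CD4 replicate 3 or CD8 replicate 2, and 1 without CD4 replicates 1 or 2 or CD8 replicate 1), and 7 were higher in CD4 (4 without CD8 replicate 1). Il12rb1, a chain of the IL-12 and IL-23 receptors, had 25.9, 50 and 38.5 CPM in CD8 against 130, 139 and 113 CPM in CD4 libraries (-1.75 ± 0.23). Csf2rb, the shared chain of the GM-CSF, IL-3 and IL-5 receptors, and Tgfbr1, a TGF-beta receptor, were lower in CD8 by 1.91 and 0.79 on the log2 scale. Cish and Socs2, feedback inhibitors induced by STAT5, were the 2 called members among 8 SOCS genes. Cish had 6.59, 15 and 11.9 against 58.3, 72.0 and 64.9 CPM (-2.55 ± 0.44), and Socs2 had 1.88, 3.57 and 4.12 against 27.0, 35.6 and 51.1 CPM (-3.57 ± 0.36). Both were higher in every CD4 library. In floxed cells Cish had 55.4 ± 40.4 CPM in the CD8 libraries and 57.0 ± 14.8 CPM in CD4 libraries (SD, n = 3), and the pairs differed (-2.50, adjusted p = 0.0125). Of 32 genes of T cell receptor signalling, 1 was higher in CD8 (Prkcq, the kinase PKC theta, 343, 343 and 321 against 206, 238 and 214 CPM) and 10 were higher in CD4, or 6 without CD4 replicates 1 or 2 or CD8 replicates 2 or 3. The adaptors Sla and Sit1, which restrain receptor signals, were lower in CD8 by 0.94 and 1.25 on the log2 scale.

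The cell cycle separated deficient lineages less than floxed ones. Of 28 G1 to S genes, 9 were higher in CD8 and none in CD4 (median 0.35), or 4 without CD4 replicate 1, 3 without CD4 replicate 2 and 4 without CD8 replicate 2. In floxed cells 27 of these genes were higher in CD8 (median 1.15), where 39.1% of all tested genes were called and 18.9% were higher in CD8, and 17 differed between the pairs towards CD4, where 4.72% of all did. Pole, a DNA polymerase of the leading strand, had 96.2, 114 and 101 CPM in CD8 against 50.2, 50.5 and 59.3 CPM in CD4 libraries (0.97 ± 0.16, adjusted p = 0.000335). Mcm7, a subunit of the replicative helicase, had 130, 132 and 115 against 87.8, 77.8 and 81.3 CPM (0.61 ± 0.14). The groups stood apart for both, though by a smaller factor than in floxed cells, with interactions of -1.05 for Pole and -0.78 for Mcm7. Of 28 genes of G2 and mitosis, 3 were higher in CD8 (median 0.27), or 1 without CD4 replicate 1, CD4 replicate 3 or CD8 replicate 2, and 0 without CD4 replicate 2 or CD8 replicate 3. In floxed cells all 28 were higher in CD8 (median 1.40), and 23 of 28 had a smaller difference in deficient cells by the test of the difference.

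**Figure D3:**
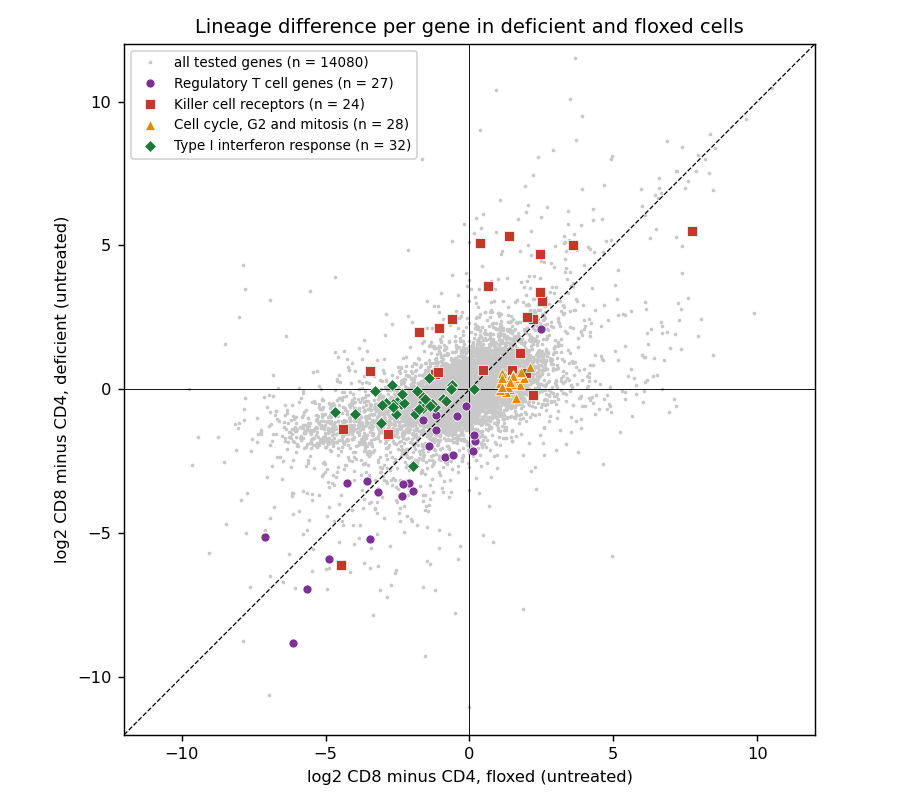
Log2 difference, CD8 minus CD4, of each tested gene in deficient cells (vertical) against floxed cells (horizontal), both untreated, with 4 lists coloured and the line of equal difference dashed. Genes of G2 and mitosis (triangles) and the type I interferon response (diamonds) lie near the horizontal axis, and regulatory T cell genes (circles) reach -8.83 on the vertical axis.

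The type I interferon response showed the same narrowing on the CD4 side. In deficient cells 7 of 32 genes were higher in CD4 and none in CD8 (median -0.49). Without CD4 replicate 1 the count was 13, without CD4 replicate 2, CD4 replicate 3 or CD8 replicate 1 it was 2, and without CD8 replicate 3 it was 4. It was 15 with the replicate block, a term in the model for the replicate number, and 11 with no filter. In floxed cells 30 of 32 were higher in CD4 (median -1.86), beside 20.2% of all tested genes. Between the pairs 21 differed towards CD8, beside 6.89% of all tested genes, or 13 without deficient CD4 replicate 1. Isg20, an exonuclease induced by interferon, had 6.24, 11.6 and 4.75 CPM in CD8 against 33.6, 62.2 and 47.7 CPM in CD4 libraries (-2.65 ± 0.34, adjusted p = 3.11e-05). Of 18 genes of MHC class I and antigen processing, 8 were higher in CD4 and none in CD8. H2-D1, a classical class I gene, had 1721, 1870 and 1580 against 2653, 2859 and 2611 CPM (-0.65 ± 0.11). Tap1 and Tap2, the peptide transporter, and H2-T23, a nonclassical class I gene, were lower in CD8 by 0.73, 0.77 and 0.68 on the log2 scale. Class I genes are close copies of each other, so reads can be split between them. Of 16 GTPases induced by interferon, 7 were higher in CD4, or 4 without CD4 replicate 2, CD8 replicate 1 or CD8 replicate 3. Gbp3 had 107, 147 and 108 against 216, 312 and 310 CPM, and Igtp 286, 403 and 312 against 553, 794 and 698 CPM.

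Of 21 glycolysis genes, 9 were higher in CD4 and 1 in CD8 (median -0.28), beside 9.39% and 6.21% of all tested genes. The pair of lactate transporters parted: Slc16a3 (MCT4) had 88.6, 122 and 91.8 CPM in CD8 against 225, 232 and 231 CPM in CD4 libraries (-1.18 ± 0.16), and Slc16a1 (MCT1) had 148, 138 and 169 against 89.2, 97.2 and 72.3 CPM (0.81 ± 0.17). Aldoc, an aldolase, and Pkm, pyruvate kinase, were lower in CD8 by 1.70 and 0.54 on the log2 scale. Of 20 genes of cholesterol synthesis, 7 were higher in CD4 and none in CD8 (median -0.44). In floxed cells 10 were higher in CD8 and 3 in CD4 (median 0.40), beside 18.9% and 20.2% of all tested genes. The difference between the pairs passed for 9 of the 20, all towards CD4, beside 4.72% of all tested genes. Insig1, a brake on the SREBP pathway, had 66.2, 95 and 69.7 against 128, 122 and 122 CPM and was lower in CD8 by 0.69 on the log2 scale. Of 28 nuclear genes of oxidative phosphorylation, 1 was higher in CD4 and none in CD8, a call that was lost without CD4 replicates 2 or 3 or any one CD8 replicate.

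Genes reported in the literature as targets of miR-155 were read in the same cells. Of 32, 1 was higher in CD8 (2 without CD4 replicate 1) and 10 were higher in CD4, or 6 without CD4 replicates 2 or 3 or any one CD8 replicate, with a median of -0.26. Besides Maf, Ets2 had 38.9, 44.9 and 52.6 CPM in CD8 against 112, 84.2 and 106 CPM in CD4 libraries (-1.15 ± 0.16), and Cebpb had 55.9, 53.4 and 55.4 against 128, 164 and 121 CPM (-1.33 ± 0.20). Both encode transcription factors, and both were higher in every CD4 library. Phf19, a Polycomb subunit, was higher in CD8, with 18.7, 23.1 and 23.8 against 12.2, 10.7 and 5.08 CPM (1.18 ± 0.26, adjusted p = 0.00315). The difference was smaller in deficient than in floxed cells for Maf (2.06, adjusted p = 2.82e-05) and for Cebpb (2.10, adjusted p = 9.35e-05), and in floxed CD4 libraries Cebpb stood at 295 ± 76.1 CPM (SD, n = 3).

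**Figure D4:**
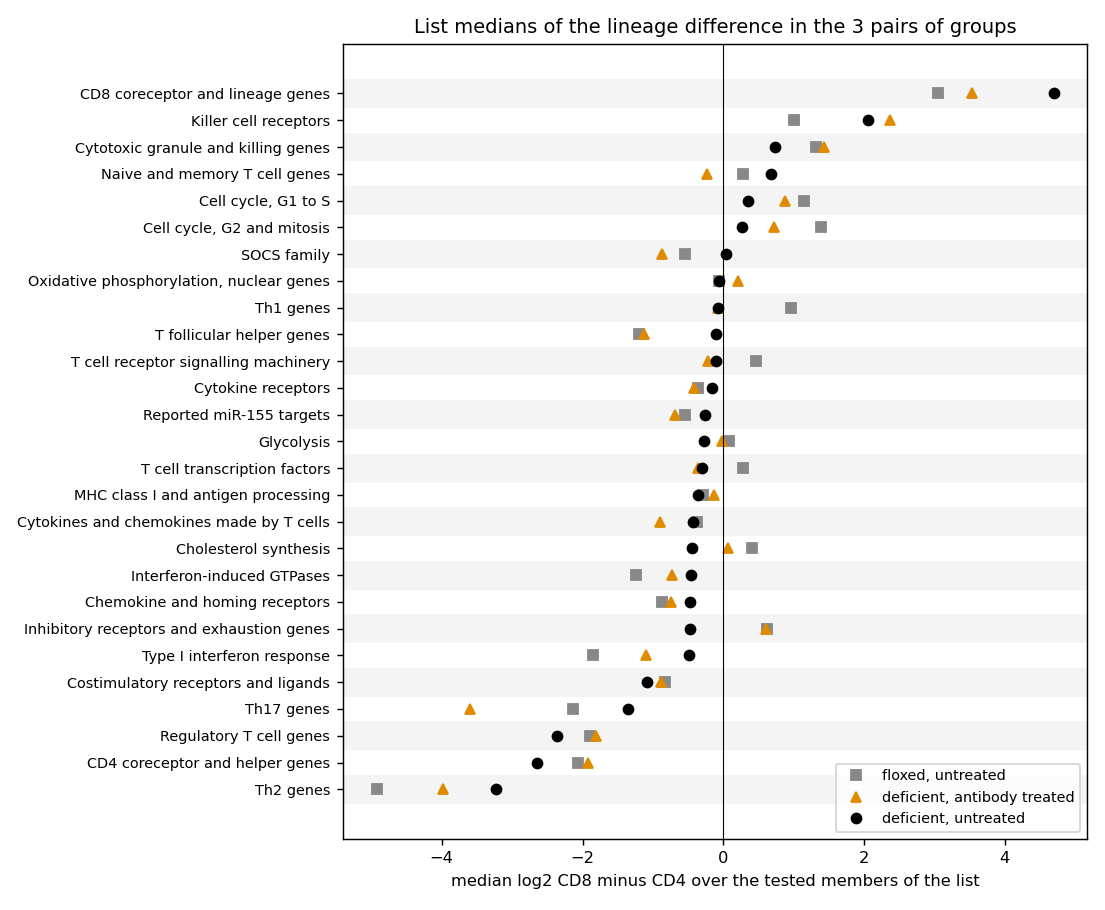
Median log2 difference, CD8 minus CD4, of each function list in untreated deficient cells (circles), untreated floxed cells (squares) and treated deficient cells (triangles). The medians of regulatory T cell, helper and CD8 lineage genes are furthest from 0 in the untreated deficient pair among these 3 lists, and those of the cell cycle and the type I interferon response are nearest to 0 there.

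A part of the lineage difference was shared by all 3 pairs of groups, whose libraries do not overlap but entered 1 fit. Of the 874 genes that were higher in deficient CD8 cells, 425 (48.6%, or 3.02% of all tested genes) were called the same way in the floxed and the treated pair, and of the 1322 that were higher in CD4 cells 663 (50.2%, or 4.71% of all tested genes) were. Among them were Cd8a, Cd8b1, Eomes, Crtam, Xcl1, Prf1 and Ifng towards CD8, and Cd4, Foxp3, Il10, Ctla4, Zbtb7b, Maf and Ccr4 towards CD4. The treated pair on its own had 9.36% of all tested genes called towards CD8 and 11% towards CD4, 20.4% in all. With the floxed pair alone, 658 genes towards CD8 were shared, which is 75.3% of the deficient and 24.7% of the floxed list, and 942 towards CD4 (71.3% and 33.1%). Opposite calls were made for 16 and 20 genes. A further 155 genes towards CD8 and 278 towards CD4 were called in the untreated deficient pair and in neither other pair, which is no test of a difference. The test of the difference between deficient and floxed pairs called 1634 genes (11.6%). Wdr95, a WD repeat gene with 8.35, 10.3 and 5.23 against 0.389, 0 and 0 CPM, was among the genes with a larger difference in deficient cells (3.37, adjusted p = 0.00753). The test between the treated and the untreated deficient pair called 113 (0.803%), of which 0.575% of all tested genes differed more towards CD8 and 0.227% more towards CD4. The lean to CD8, 81 against 32 genes, was not kept with the replicate block (138 against 148) and turned with no filter (232 against 433).

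Markers of other cells were present in both lineages and were not equal. Melanoma markers summed to 3220, 3157 and 1414 CPM in the CD8 libraries and 4446, 3830 and 1891 CPM in CD4 libraries, with none of 15 genes called (exact permutation p = 0.5). Replicate 3 was the lowest in both lineages. In floxed libraries the melanoma sum was 180.6 ± 24.1 CPM in CD8 and 341.8 ± 293.7 CPM in CD4 (SD, n = 3 each). Every floxed library was thus below every deficient library of its lineage, and the part of this in comparisons with the floxed pair was not tested. Macrophage markers summed to 1781, 2470 and 3596 CPM in the CD8 libraries and 5230, 7223 and 7329 CPM in CD4 libraries, and 8 of 20 were called higher in CD4 (3 without CD4 replicate 2, CD4 replicate 3 or CD8 replicate 1, 4 without CD8 replicate 2 and 5 without CD8 replicate 3). The count was 13 with voom, 15 with the replicate block and 17 with no filter. Dendritic cell and class II markers summed to 829 to 1599 CPM in the CD8 libraries and 3413 to 5285 CPM in CD4 libraries, and 10 of 14 were called higher in CD4. The libraries did not overlap for these last 2 lists (exact permutation p = 0.1, the smallest possible). No marker of these 3 lists was at 0 in either group. In floxed libraries the macrophage sum was 1408 ± 862 CPM in the CD8 libraries and 21890 ± 8123 CPM in CD4 (SD, n = 3), so it differed between the pairs as well, beside the interferon genes, Cebpb, Cxcl10 and Csf2rb. Its part in any of these results was not tested. Natural killer markers summed to 378 to 494 CPM in the CD8 libraries and 275 to 423 CPM in CD4 libraries. Of 9 tested, 4 were higher in CD8, namely Klra7, Klre1, Eomes and Gzma. Eomes is also on the list of CD8 lineage genes and Klra7 on that of killer cell receptors. Fcer1g and Tyrobp stand on both the natural killer and the macrophage list, so the natural killer sum is not a level of natural killer cells alone. With counts divided by library totals, the natural killer sums did not overlap (421 to 545 against 288 to 406 CPM, exact permutation p = 0.1, against 0.4 with TMM). The markers of gamma delta T cells summed to 61.5 to 66.8 CPM in the CD8 libraries and 11.5 to 21.4 CPM in CD4 libraries, with 2 of 4 tested members higher in CD8, or 1 without CD4 replicates 1 or 2 or any one CD8 replicate.

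**Figure D5:**
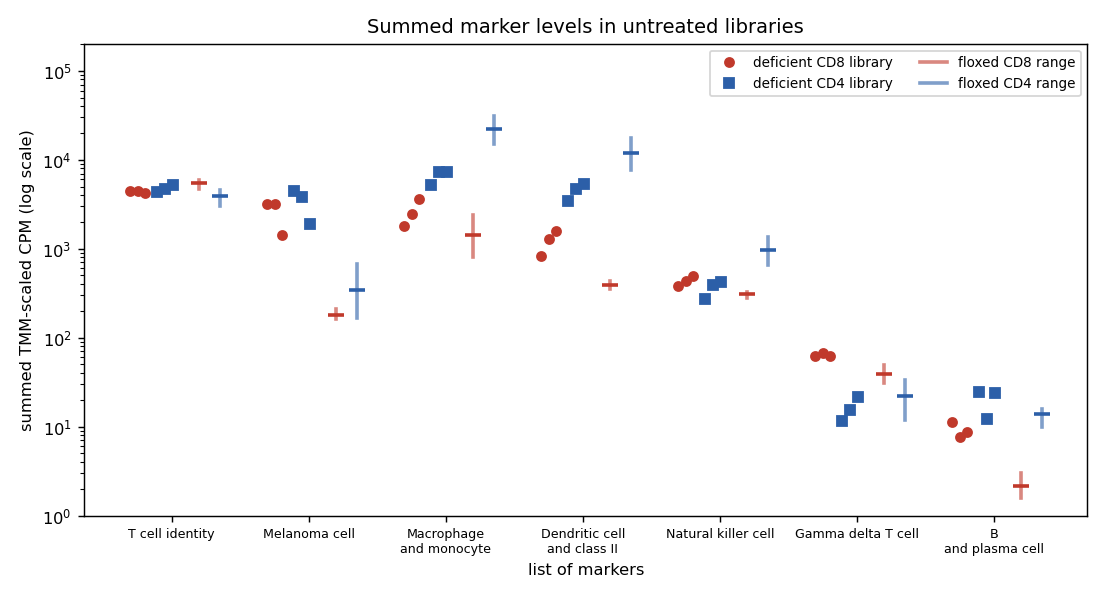
Summed TMM-scaled CPM of 7 marker lists, on a log axis, in each untreated deficient library (circles, CD8; squares, CD4), with the range (line) and mean (dash) of the floxed groups. Macrophage and dendritic cell markers are higher in the CD4 libraries of both pairs. In T cell identity markers the deficient lineages overlap and the floxed ones do not.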

How the data were processed

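Total RNA of T cells sorted from tumors was sequenced in 18 libraries. The authors deposited raw read counts, with a table of 49671 gene models for each library. The file headers name featureCounts 1.5.1 with strand option 2 and the annotation of Ensembl release 87. STAR, featureCounts, DESeq2 and GRCm38 stand in the submitters' processing notes. Symbols came from GENCODE M21 and matched 99.3% of the gene IDs.

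One model held all 6 groups of 3. It was fitted in edgeR 4.0.16 (R 4.3.3) after filterByExpr and TMM scaling, with the robust quasi-likelihood option, and had 12 residual degrees of freedom over 14080 tested genes. Adjusted p-values are Benjamini-Hochberg values of edgeR's quasi-likelihood test over all tested genes, and a gene was called under 0.05. The SE of a log2 difference was worked back from that test, as its size divided by the square root of the F statistic. Alternatives used limma 3.58.1 (voom), DESeq2 1.42.0, other scalings and filters, a replicate block and leaving out libraries. Counts of 13721 genes were simulated for this comparison, with 200 changed genes, all above 5 CPM and evenly up and down, and the rest unchanged. There the fit recovered 61% of log2 changes of 1 and 93% of log2 changes of 2, and 5.5% of its calls were false. The data held more and uneven differences and genes near the floor, so these rates need not carry over.

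The text draws its genes from a rule: the coreceptors and Mir155hg, up to 15 genes per direction with the largest difference among called genes with a mean of at least 5 CPM in the higher group and no overlap of libraries (unnamed models, receptor segments and markers of other cells left out), the same among genes called in all 3 pairs, up to 8 per direction with the largest difference between deficient and floxed pairs, up to 4 called members per list and direction, all members of lists of up to 12 genes, and a set of T cell genes whatever their result. From these it uses genes whose call did not change under the alternatives, while Gzmd and Gzmf are given by their counts without that condition. Outside the rule, it names members of marker lists beside their sums and 3 receptor segments picked after their values were seen. The members and the 27 function lists were chosen with earlier results of these data known. Floors of 3 counts and counting intervals cover counting error only. Sequences are those of RefSeq for GRCm38.p6. Results that need items withheld for evaluation are not reported here.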

Additional observations from a re-analysis of the deposited data

Results flagged for a closer look

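The CD8 minus CD4 difference of 1634 genes differed between deficient and floxed cells, and that of 113 genes between treated and untreated deficient cells, each by a test of the difference itself (edgeR's quasi-likelihood test, Benjamini-Hochberg adjusted p under 0.05). Values in this section are differences between 2 log2 differences, and a positive value is a shift towards CD8. The floxed CD4 libraries held more Cd8a and more macrophage transcripts than the deficient CD4 libraries. Melanoma marker sums were lower in the floxed than in the deficient libraries of each lineage. T cell identity sums separated the lineages in floxed but not in untreated deficient libraries. The part of these differences in the values was not tested.

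Against floxed cells, deficient cells were shifted towards CD8 for Cd8a (7.84), Klra7 (4.73), Klra6 (3.96), Cd160 (2.26), Gpr15 (4.68), Ly6c2 (1.49), Slc6a19 (5.21) and Wdr95 (3.37). The call of Cd8a was lost with voom (adjusted p = 0.187) and with the replicate block (0.0506), and that of Cd160 with voom (0.111) and without any one of 7 libraries, with adjusted p from 0.0524 to 0.0955. Those 7 were deficient CD4 replicates 1 and 2, deficient CD8 replicates 2 and 3, floxed CD4 replicates 2 and 3 and floxed CD8 replicate 1. The same direction was seen for Maf (2.06), Cebpb (2.10), Cxcl10 (2.35), Csf2rb (1.78) and Tgfbr1 (1.18), genes that were higher in CD4 cells of both pairs.

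Shifts towards CD4 were called for the checkpoint genes Pdcd1 (-1.52), Havcr2 (-1.59), Ctla4 (-1.60) and Entpd1 (-1.70), for the effector genes Gzmb (-1.74) and Tbx21 (-1.05), and for the replication genes Pole (-1.05) and Mcm7 (-0.78). They were also called for Icos (-1.59), Tnfrsf8 (-2.45), Klrg1 (-1.65), Ccr3 (-3.73), Cish (-2.50) and Arnt2 (-4.46). The call of Klrg1 was lost with voom (adjusted p = 0.0767). That of Tbx21 was lost without any one of 7 libraries, with adjusted p from 0.0575 to 0.0774: deficient CD4 replicates 2 and 3, deficient CD8 replicates 1 and 3, floxed CD4 replicate 3 and floxed CD8 replicates 1 and 2.

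Between the treated and the untreated deficient pair, the difference moved towards CD8 for Gzmb (2.62), Havcr2 (2.02), Pdcd1 (0.92), Entpd1 (2.42), Ctla4 (1.94), Klrg1 (3.26), Il10 (3.73), Nkg7 (0.87), Nfil3 (1.25) and Arnt2 (3.51). Treated CD8 replicate 2 had 3.2 M counts, of which 25.6% fell on gene models that resemble ribosomal RNA. Treated CD4 replicate 2 had 3.36 M counts, with 3.46% on such models. The call of Arnt2 was lost with voom (adjusted p = 0.0943). That of Pdcd1 was lost without any one of 9 libraries, with adjusted p from 0.0562 to 0.132, all but deficient CD4 replicate 2, treated CD4 replicate 2 and treated CD8 replicate 3. That of Havcr2 was lost, with adjusted p from 0.0503 to 0.0792, without any one of deficient CD4 replicates 2 and 3, deficient CD8 replicate 3, treated CD4 replicates 1 and 3 and treated CD8 replicates 1 and 2.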

How the results depend on the processing

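The count of 2196 genes called in deficient cells was 972 when a log2 difference of at least 1 was asked for, and ran from 1332 to 1745 without 1 library. Other settings gave 907 and 1254 genes (higher in CD8 and in CD4) with RLE scaling, 905 and 1404 with voom, 1140 and 1494 with DESeq2, 1111 and 1287 with no filter, and 1507 and 1703 with the 6 libraries fitted alone. The 87 genes checked for the text kept their side of the threshold, and called ones their direction, in all 1217 values under alternative fits. They had been chosen for calls that did not change, so this is no test of robustness. The treated pair gave from 1862 to 2301 genes when 1 of its libraries was left out, with 1862 without treated CD8 replicate 1.

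The test between treated and untreated deficient pairs moved most: its 113 genes became 336 with DESeq2, 665 with no filter and 286 with the replicate block (81 towards CD8 and 32 towards CD4 became 188 and 148, 232 and 433, and 138 and 148), and from 49 to 108 without 1 library, with 49 without treated CD8 replicate 1. The cause was not tested.

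Same-numbered CD8 and CD4 libraries deviated together with correlations of 0.164, 0.093 and 0.134 in deficient cells, and each correlated best with its own number, a hint from the data and not from the design. In floxed cells the values were 0.003, 0.028 and 0.088. In treated cells they were 0.105, 0.103 and 0.289, each the best match, so same-numbered libraries deviated together there, while the deficient and floxed pairs fell short of 0.1 in at least 1 number. The replicate block gave 2409 genes in deficient cells, 927 higher in CD8 and 1482 in CD4. Of list counts not given so far, those towards CD8 were 10 with no filter and 9 with the 6 libraries alone for transcription factors (4), 5 and 6 for G2 and mitosis (3), and 3 with the block for inhibitory receptors (5), and that towards CD4 was 12 with no filter for secreted factors (6).

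With CPM of total counts in place of TMM, the summed marker difference, CD8 minus CD4, was 54.7 for gamma delta T cells (47.6 with TMM), -64.5 for innate-like T cells (-72.0), -36.9 for endothelial cells (-46.0), 122.1 for natural killer cells (71.8) and 157.5 for T cell identity genes (-346.8), where the direction turned. Depth limits genes of few counts, such as Foxp3, Gh and Ermn in CD8 cells.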

Other observations

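Other helper lists leaned little to either lineage. Of 16 Th1 genes, 4 were higher in CD8 and 3 in CD4, and the count towards CD8 was 1 or 2 without any one library other than CD8 replicate 3. Of 13 follicular helper genes, 2 were higher in CD8 (0 or 1 without any one library other than CD4 replicate 3) and 4 in CD4, and of 7 Th17 genes 1 was higher in CD4 (2 without CD8 replicate 3).

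Some receptor segments, picked after their values were seen, were higher in CD8 cells. Trbv12-1, a variable segment of the T cell receptor beta chain, had 68.9, 50.1 and 46.4 CPM in CD8 against 5.96, 2.99 and 5.36 CPM in CD4 libraries (log2 difference of 3.55, adjusted p = 0.000119, edgeR's quasi-likelihood test). Tcrg-C2, a constant segment of the gamma chain, had 21.5, 31.4 and 23.8 against 1.43, 2.17 and 3.39 CPM (3.54, adjusted p = 5.76e-05), and Trgv2, a variable gamma segment, had 6.82, 11.5 and 9.19 against 0.518, 0.815 and 0.282 CPM (3.94, adjusted p = 6.5e-05). The segments are similar in sequence, so reads can be split among them. Sox13, a factor of gamma delta T cells, had no count in the CD8 libraries and only 6 counts over the CD4 libraries, so it was near the floor in both.

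Smaller marker sums, CD8 libraries first, were 4.0 to 8.24 against 11.4 to 19.1 CPM for neutrophils (Mpo and Elane at 0 in both lineages), 7.65 to 11.2 against 12.1 to 24.5 CPM for B and plasma cells, 63.8 to 70.8 against 135 to 143 CPM for innate-like T cells, 68.7 to 92.0 against 126 to 131 CPM for endothelial cells and 1.29 to 27.8 against 2.46 to 21.5 CPM for fibroblasts.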
